A study of Mus musculus with 24 samples.

Results

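The genes described here encode 10 transcription factors that build and maintain fat cells: Pparg, Rxra, Cebpa, Cebpb, Cebpd, Ebf1, Zfp423, Klf15, Irf4 and Esrra. They were taken from a list of symbols, matched to Ensembl identifiers through GENCODE M21, and read in the control and inhibitor columns of every deposited table, which together list 29088 identifiers in both tables of a tissue. The samples were white (WAT) and brown (BAT) fat from mice of the C57BL/6 strain, profiled by sequencing of poly(A) RNA after 2 subcutaneous doses, 25 mg/kg each, of an antisense oligonucleotide with locked nucleic acid bases. The oligonucleotide was directed against miR-224 (antimiR-224) or miR-452 (antimiR-452), or had a scrambled sequence (scramblemiR, labelled as the control). Each tissue and treatment had 4 libraries, 24 in 6 groups. No allele, transgene or diet is named for any group, and the sex, the age, the white depot, the interval after injection and whether each library is a separate mouse are not stated by the labels. The p-values below therefore measure the spread between these libraries, which may be partly technical. Some WAT and BAT libraries of the same treatment carry the same number in the names the authors pooled, so both tissues may come from the same mice. The tests between tissues treat all libraries as independent.

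Fat cell differentiation is known as a relay of transcription factors. C/EBPβ and C/EBPδ are induced early and switch on Pparg and Cebpa, whose products then sustain each other's expression and the genes of lipid storage. PPARγ is a nuclear receptor that binds DNA as a partner of RXRα, the product of Rxra. EBF1 and ZFP423 act in committed precursors, and ZFP423 also holds white fat cells back from a brown program. KLF15 and IRF4 govern glucose and lipid metabolism according to feeding, and IRF4 works with PGC-1α in the thermogenic response of brown fat. ERRα, the product of Esrra, is an orphan nuclear receptor that drives mitochondrial and oxidative genes with the same coactivator.

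The mature 5p sequences of miR-224 and miR-452 are printed. Their seeds, bases 2 to 8 in capitals, set which messages they can pair with. Both sequences were read from RefSeq (GRCm38.p6), and the seeds differ.
mmu-miR-224-5p: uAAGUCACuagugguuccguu
mmu-miR-452-5p: uGUUUGCAgaggaaacugagac
They lie on the minus strand of the X chromosome, miR-224-5p at chrX:72261085-72261105 and miR-452-5p at chrX:72262271-72262292. Both positions are within Gabre, on the strand of that gene and in no annotated exon. The letters that pair with each seed were searched on the message strand of the 3′ UTR of 1 transcript per gene in GENCODE M21. Each miRNA also has a mature 3p product, whose seed was not searched. The match to miR-224-5p, GTGACTT, was present in 12.8% of 20972 coding genes with a 3′ UTR and in 2 of the 10 transcription factors. The match to miR-452-5p, TGCAAAC, was present in 9.69% of those coding genes and in 0 of the 10. The matches to miR-224-5p are shown with their neighbouring bases, 5′ to 3′ on the message strand, with the match in capitals (GRCm38).
Rxra: ccaatggtcatGTGACTTccacattgcagc
Zfp423: tgcttttaaatGTGACTTgatctgactgca
The Rxra window is chr2:27761812-27761841 on the plus strand, and its match starts at base 2135 of a 3′ UTR of 3269 bases. The Zfp423 window is chr8:87661853-87661882 on the minus strand, and its match starts at base 607 of 668. A match is a string of letters and no measured binding site, and a gene without it may be reached in other ways.

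The deposited tables give group means of normalized counts. For each library, whole reads were worked back from the means for 100% of genes in the control groups and for 98.15% to 98.44% in the inhibitor groups. All 24 libraries were recovered for 8 of the 10 genes. Cebpa in every inhibitor group and Esrra in BAT antimiR-452 were not recovered and are given as the authors' means. Values below are normalized counts on a scale common to both tissues. Libraries are numbered from 1 to 4 within a group by descending size factor, a number with no meaning across groups. Control libraries held 16960694 to 27935908 reads in genes. Ucp1, the brown fat uncoupling protein, was at 59951 to 179055 in BAT controls and at 0.769 to 132.1 in WAT controls, as the tissue labels have it. Markers of other tissues set some libraries apart within their group. The sum of 5 epithelium markers was 4092 to 8717 in WAT antimiR-224 libraries 1 and 2 and antimiR-452 libraries 1 to 3, against 237.5 to 1187 in the other WAT libraries. The sum of 5 male germ cell markers was 12997 in WAT scramblemiR library 2, 3869 and 1193 in antimiR-224 libraries 3 and 4, and at most 274.8 elsewhere in WAT. The sum of 10 skeletal muscle genes was 61436 and 53805 in BAT scramblemiR libraries 1 and 2, 35841 in antimiR-224 library 1 and 148483 in antimiR-452 library 1. It was 28.67 to 8075 in the other BAT libraries. These libraries were picked by eye from the marker sums, and results are given without them where they bear on a value. In WAT a sum of 5 skeletal muscle markers was 7652 in antimiR-452 library 3 and 2229 in library 4. It was at most 1023 in the other WAT libraries, and no WAT library was left out for that sum.

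In control fat the white and brown tissue differed most in the messages of C/EBPβ and ERRα. Cebpb was 10.7-fold and Esrra 6.25-fold lower in WAT than in BAT, while Ebf1 was 2.01-fold and Zfp423 1.92-fold higher in WAT. Of the 10 genes, 3 were called higher and 2 lower in WAT (limma on log2 of the normalized count plus 1, Benjamini-Hochberg adjusted p under 0.05 over 16282 genes). The depots differed in 43.2% of all genes tested, 22.5% higher and 20.7% lower in WAT, so a share of 5 in 10 is near the background. Leaving out the libraries rich in germ cell or muscle genes kept 3 WAT and 2 BAT libraries. Of the 10 genes, 3 were then called higher (Ebf1, Rxra and Cebpd) and 2 lower (Cebpb and Esrra), against 37.8% of all genes. Zfp423 lost its call there and Cebpd gained one. In whole tissue, fewer cells of a type and less RNA per cell cannot be told apart.

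Per kilobase of annotated exon, the order of the levels differed between the depots. In WAT the mean per kilobase ran from Cebpa at 6442 and Pparg at 2024 through Rxra at 999.8, Klf15 at 850.9, Ebf1 at 608.4, Esrra at 400.3, Irf4 at 350.6, Cebpb at 323.6 and Cebpd at 195.4 to Zfp423 at 126.5. Only Cebpa and Pparg, and Pparg and Rxra, had library ranges that did not overlap with the next gene in that order. In BAT the order of the level per kilobase was Cebpa at 5385, Cebpb at 3487, Pparg at 2612, Esrra at 2521, Klf15 at 1040, Irf4 at 781.5, Rxra at 658.5, Ebf1 at 310.5, Cebpd at 144 and Zfp423 at 66.2. Neighbours there were apart between Esrra and Klf15, between Rxra and Ebf1 and between Ebf1 and Cebpd, and overlapped elsewhere. Cebpb thus stood at rank 8 in WAT and at rank 2 in BAT, and Esrra at ranks 6 and 4.

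**Figure D1:**
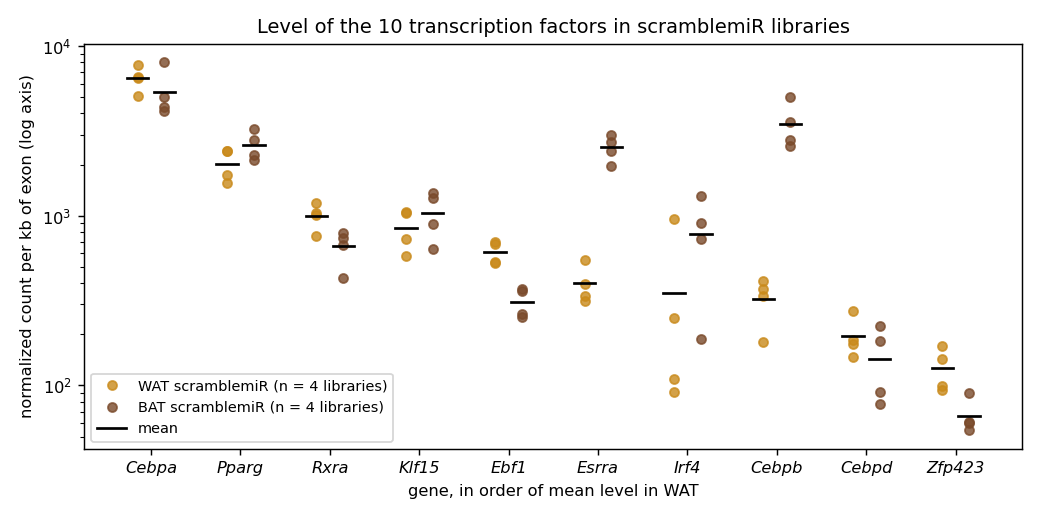
Normalized count per kilobase of exon (log axis) of the 10 genes in the 4 WAT and 4 BAT scramblemiR libraries; points are libraries and bars are means. Esrra and Cebpb are the genes whose BAT points lie far above the WAT points, while Ebf1 and Zfp423 lie above in WAT.

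The C/EBP family members differed in how far the depots were apart. Cebpb, which encodes the early-acting C/EBPβ, was at 270, 555, 618 and 504 in the WAT controls and at 3855, 4171, 7566 and 5386 in the BAT controls. Every BAT library was far above every WAT library (log2 -3.41 ± 0.29 (SE), adjusted p 3.72e-05), and the call held without any 1 library and under each other scaling. Cebpd, the companion early factor, was at 554, 692, 1027 and 654 in WAT and at 839, 682, 344 and 293 in BAT. The groups overlapped (log2 0.57 ± 0.35, adjusted p 0.213). The higher BAT values were those of the libraries rich in muscle genes. Without these libraries and the germ cell library the difference was 1.21 (adjusted p 0.0144), over 3 WAT and 2 BAT libraries. Cebpa, which encodes the C/EBPα that sustains mature fat cells, was at 17294, 13357, 20337 and 16941 in WAT and at 11507, 10934, 13262 and 21076 in BAT. It did not differ beyond the spread (log2 0.32 ± 0.25, adjusted p 0.319, interval -0.23 to 0.88).

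Among the nuclear receptors, Esrra was at 893, 704, 758 and 1235 in WAT and at 4402, 5421, 6112 and 6676 in BAT. The lowest BAT value was above the highest WAT value by a wide margin (log2 -2.64 ± 0.21, adjusted p 2.49e-05). Pparg was at 5708, 3695, 5727 and 4125 in WAT and at 5036, 5432, 6660 and 7720 in BAT. Those ranges overlapped (log2 -0.35 ± 0.22, adjusted p 0.22, interval -0.83 to 0.14). Rxra, the PPARγ partner, was at 5129, 3887, 6096 and 5301 in WAT and at 4052, 3422, 2180 and 3788 in BAT. Just 1 BAT library reached into the WAT range, and the difference was 0.65 ± 0.23 (adjusted p 0.0428). That call was lost without WAT library 1 (0.64, adjusted p 0.0895), WAT library 3 (0.56, 0.111), WAT library 4 (0.63, 0.0838), BAT library 2 (0.67, 0.0782), BAT library 3 (0.46, 0.0902) or BAT library 4 (0.72, 0.0512), and with no minimum mean (0.65, 0.0507).

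The precursor factors were higher in WAT. Ebf1 was at 4054, 3187, 3138 and 4184 in WAT and at 1517, 1570, 2141 and 2205 in BAT, with no overlap (log2 1.01 ± 0.18, adjusted p 0.00196). Zfp423 was at 729, 500, 473 and 858 in WAT and at 275, 303, 454 and 308 in BAT. The highest BAT library came close to the lowest WAT library without reaching it (log2 0.94 ± 0.24, adjusted p 0.00983). Without the germ cell and muscle libraries the Zfp423 difference was 0.86 with an adjusted p of 0.0554. In all, 4 of the 10 genes had groups that did not overlap, against 42.1% of all genes tested.

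The metabolic regulators were not separated. Klf15 was at 2899, 1602, 2861 and 2012 in WAT and at 3736, 2457, 1754 and 3512 in BAT (log2 -0.24 ± 0.28, adjusted p 0.517). Irf4 was at 435, 1190, 4539 and 517 in WAT and at 3467, 898, 6216 and 4311 in BAT. The groups were mostly apart except for WAT library 3 and BAT library 2, and the difference was -1.5 ± 0.89 (adjusted p 0.211, interval -3.57 to 0.58). Without WAT library 3 it was -2.20 with an adjusted p of 0.0469. IRF4 is also a lymphocyte factor, and a sum of 3 recovered B cell markers was 70.75 in WAT library 3 and 902.8 in WAT library 2. The part of lymphocytes in the Irf4 values was not tested.

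The depot differences depend on a scaling between tissues, because the authors normalized WAT and BAT separately. Scaling to total recovered reads moved the median of all genes from 0.04 to 0.58 and the share of calls that were higher in WAT from 52.2% to 81.5%. On that scale the differences were 0.85 for Cebpa (adjusted p 0.00814) and 1.1 for Cebpd (adjusted p 0.0265), and Pparg at 0.18 and Klf15 at 0.29 changed sign. With upper quartile scaling the median was 0.16 and the share 60.9%. The calls of Cebpb, Esrra, Ebf1, Zfp423 and Rxra kept their direction and side of the threshold under both.

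Lists of co-regulators and target genes of these factors were compared between the depots, where 43.2% of all genes were called. Of 12 genes known as ERRα targets, 12 were lower in WAT (median log2 -2.67, against 0.04 for all genes). They included Pdk4, a kinase that restrains pyruvate oxidation, at 1165 in WAT and 85492 in BAT (log2 -6.17, adjusted p 5.29e-07). The respiratory chain gene Uqcrc1 differed by -3.0 (adjusted p 3.33e-05). Among 39 co-regulators of fat cell differentiation, 2 were higher and 13 lower in WAT (median log2 -0.16). In total that share was near that of all genes. By direction it leaned to lower in WAT, whereas of all genes 22.5% were higher and 20.7% lower. The PGC-1 coactivator genes Ppargc1a (log2 -3.42, adjusted p 6.27e-06) and Ppargc1b (-3.44, adjusted p 1.23e-05) and the brown fat determination factor Prdm16 (-3.15, adjusted p 1.74e-05) had the smallest p among these. The 22 PPARγ targets were split, with 6 higher and 7 lower in WAT. The adipokine genes Cfd (log2 3.29, adjusted p 9.97e-05) and Adipoq (1.66, adjusted p 0.000528) were higher, and the lipid droplet protein gene Plin2 (-1.54, adjusted p 0.000562) was lower. Of 12 glucocorticoid-responsive genes 2 were higher and 2 lower, again no more than among all genes.

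None of the 10 genes passed the threshold after either inhibitor in either tissue. In the authors' deposited tables every adjusted p of these genes was 1 in all 4 comparisons. Those tables called 0.00343% of genes in WAT after antimiR-224, 1 of 29128, and 0.00% in the other comparisons. The limma test called 0.00% of genes in each comparison with scramblemiR, with 1092 of 16658 genes at an unadjusted p under 0.05 in WAT after antimiR-224, 580 of 16629 in WAT after antimiR-452, 249 of 14846 in BAT after antimiR-224 and 713 of 14779 in BAT after antimiR-452. Of the 9 genes with reads in WAT, 1 had groups that did not overlap after antimiR-224 and 0 after antimiR-452, against 3.61% and 1.65% of all genes tested. In BAT 0 of 9 and 0 of 8 did, against 3.79% and 3.18%. The comparisons of a tissue share their 4 control libraries.

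**Figure D2:**
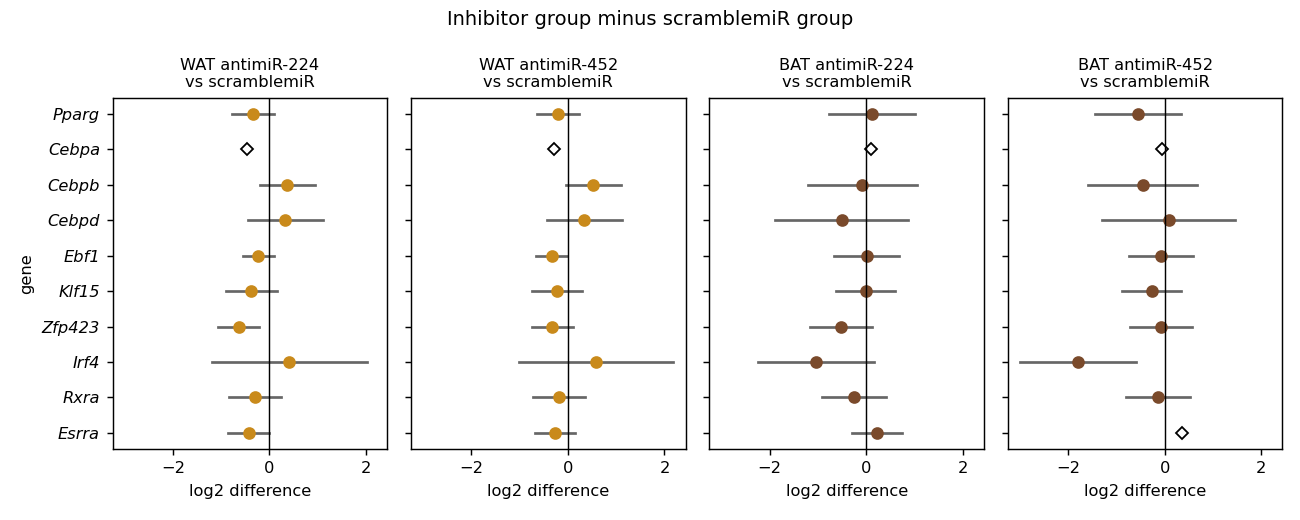
Difference in log2 (normalized count + 1) between each inhibitor group and scramblemiR for the 10 genes, with 95% confidence intervals from limma (n = 4 libraries a group); open diamonds are log2 ratios of the authors' deposited means where reads were not recovered. Intervals leave out 0 for Zfp423 and Esrra in WAT after antimiR-224, Ebf1 in WAT after antimiR-452 and Irf4 in BAT after antimiR-452, and none of these passed the adjusted threshold.

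In WAT after antimiR-224, Zfp423 lay below its controls in every library. It was at 418, 396, 327 and 458 against 729, 500, 473 and 858 with scramblemiR. All 4 inhibitor libraries lay below all 4 controls, a separation downward that 1.90% of the genes tested also had. The difference was -0.64 ± 0.19 (interval -1.06 to -0.22, unadjusted p 0.00601, adjusted p 0.722), from 640 ± 185.4 to 399.4 ± 54.82 (SD, n = 4 each). It was -0.68 without the libraries rich in epithelium genes and -0.71 without those rich in germ cell genes (adjusted p 1 and 0.149). Each of the 4 antimiR-224 libraries was rich in 1 or the other kind of genes. Neither fit therefore compares antimiR-224 libraries free of both with the controls. In the authors' deposited table the means were 867.7 and 544.7 (log2 -0.67, p 0.0824, adjusted p 1). Zfp423 is 1 of the 2 genes whose 3′ UTR holds the seed match to miR-224-5p printed above. Whether that match has a part in its values was not tested. Rxra, which holds the other match, was at 3961, 2594, 5297 and 5154 with antimiR-224, and the controls ran from 3887 to 6096 (log2 -0.30, adjusted p 0.812).

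The receptors and their targets had lower values in the same comparison, and none was called. Esrra was at 741, 691, 615 and 565 with antimiR-224, where only the first reached above the lowest control of 704 (log2 -0.43 ± 0.19, interval -0.85 to -0.02, unadjusted p 0.0426, adjusted p 0.752). Pparg was at 3560, 2858, 4737 and 4024 against 3695 to 5727 (log2 -0.34 ± 0.20, adjusted p 0.789). The lowest Pparg and Rxra values were in libraries 1 and 2, which were rich in epithelium genes. Without those libraries the differences were -0.11 for Pparg, -0.09 for Klf15 and 0.05 for Rxra. Without the libraries rich in germ cell genes they were -0.68, -0.83 and -0.78 (adjusted p 0.14, 0.135 and 0.147), so these values rest on which libraries are kept. Cebpa means in the authors' deposited table were 23029 with scramblemiR and 16719 with antimiR-224 (log2 -0.46, p 0.0616, adjusted p 1). Of the 22 PPARγ targets 22 had a log2 ratio below 0 in the authors' deposited table (median -0.37, against -0.03 for all genes). Of the 12 ERRα targets 11 did (median -0.45), and of all genes with a ratio 13544 of 25319. None of the targets passed. Those means include the libraries rich in epithelium or germ cell genes. The PPARγ targets include Fabp4, Plin1, Adipoq and Cidec, which are also markers of fat cells. The part of fat cell content in these ratios was not tested.

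The remaining WAT values after antimiR-224 were of mixed direction. Klf15 was at 1591, 1299, 2206 and 2063 (log2 -0.38, adjusted p 0.797) and Ebf1 at 2898, 2777, 3032 and 3680 (-0.23, adjusted p 0.797). Cebpb was at 547, 646, 522 and 711 (0.37, adjusted p 0.801) and Cebpd at 592, 1760, 606 and 1012 (0.33, adjusted p 0.849). Both early C/EBP genes overlapped with the controls. Irf4 was at 1470, 1937, 1472 and 914, all within the control range of 435 to 4539, and 1 control library was far above the rest. Its arithmetic mean was lower than in the controls, at 1448 against 1670, and its mean log2 value higher by 0.41 (adjusted p 0.91).

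**Figure D3:**
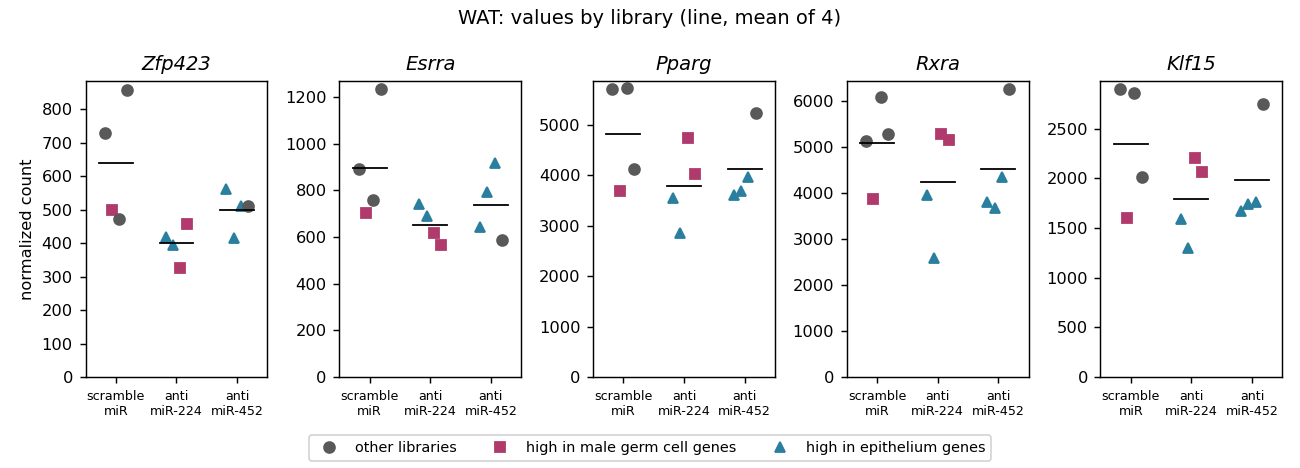
Normalized counts of Zfp423, Esrra, Pparg, Rxra and Klf15 in the 12 WAT libraries by treatment; the line is the mean of 4, squares are libraries rich in male germ cell genes and triangles libraries rich in epithelium genes. Zfp423 is the gene whose antimiR-224 points, 327 to 458, lie below all controls; the triangles are the lowest points of the antimiR-224 group for Pparg, Rxra and Klf15.

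In WAT after antimiR-452, Ebf1 and Cebpb had the smallest unadjusted p among the members. Ebf1 was at 2353, 2980, 2870 and 3334 against 3138 to 4184, with just library 4 inside the control range (log2 -0.33 ± 0.15, interval -0.66 to -0.01, unadjusted p 0.0424, adjusted p 0.957). Cebpb was at 526, 997, 579 and 660 against 270 to 618 (log2 0.52 ± 0.26, unadjusted p 0.0676, adjusted p 0.957). The groups overlapped for both. Zfp423 was at 562, 416, 512 and 511 (log2 -0.32), with a single library below every control. Esrra was at 645, 791, 919 and 585 (-0.27), Pparg at 3602, 3696, 3976 and 5236 (-0.21) and Rxra at 3814, 3673, 4346 and 6262 (-0.19). For Pparg and Rxra the highest value was in library 4, the one low in epithelium genes. The other 3 libraries ran from 3602 to 3976 and from 3673 to 4346. Library 4 also had a sum of 5 skeletal muscle markers of 2229. Klf15 was at 1671, 1745, 1762 and 2752 (-0.23), with the same library on top. Cebpd was at 1102, 916, 547 and 1212 (0.34) and Irf4 at 2516, 2176, 438 and 2525 (0.58), and each adjusted p was 0.957. Leaving out the 3 libraries rich in epithelium genes would keep a single one, so their part in these values was not tested. The Cebpa means in the authors' deposited table were 23168 and 19044 (log2 -0.28, p 0.262, adjusted p 1). There, 22 of 22 PPARγ targets (median -0.30, against -0.05 for all genes) and 11 of 12 ERRα targets (median -0.27) lay below 0. Of all genes with a ratio 13829 of 24650 did, and none of the targets passed. Those means include the 3 libraries rich in epithelium genes, and the controls are those of the antimiR-224 comparison.

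In BAT the largest differences from scramblemiR were those of Irf4. Its controls were at 3467, 898, 6216 and 4311. It was at 1221, 2558, 849 and 1743 with antimiR-224 and at 484, 1277, 816 and 1145 with antimiR-452. The overlap with the controls came from control library 2 alone, at 898. After antimiR-452 the difference was -1.79 ± 0.55 (interval -2.99 to -0.59, unadjusted p 0.00674, adjusted p 0.937), with means of 3723 ± 2207 and 930.4 ± 354.9 (SD, n = 4 each). After antimiR-224 it was -1.04 ± 0.55 (interval -2.24 to 0.16, unadjusted p 0.0826, adjusted p 0.962). The authors' deposited tables gave log2 ratios of -2.0 (p 0.00599) and -1.23 (p 0.0766), each with an adjusted p of 1.

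The low control and the lowest antimiR-452 library for Irf4 were both rich in muscle genes. Control library 1, at 3467, and antimiR-224 library 1, at 1221, were also rich in them and lay inside the range of their groups. Without the 4 BAT libraries of that kind the controls, at 4311 and 6216, lay above every antimiR-224 library (849.2 to 2558) and every antimiR-452 library (816.3 to 1277). The differences were then -1.73 ± 0.43 (adjusted p 1) and -2.29 ± 0.43 (adjusted p 0.78), over 2 controls and 3 libraries of each inhibitor group. So few libraries separate more easily than 4 against 4, and the share of all genes so separated was not counted. A sum of 4 B cell markers was 7.51 to 44.94 in the controls, 8.06 to 252.2 with antimiR-224 and 6.966 to 14.61 with antimiR-452. The part of B cells in the Irf4 difference was not tested. Without control library 2 alone the differences were -1.63 and -2.38, and without control library 3 they were -0.70 and -1.45.

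The other BAT members overlapped between groups. Pparg was at 6320, 7792, 6564 and 5937 with antimiR-224 (log2 0.11) and at 1423, 5410, 6453 and 6193 with antimiR-452 (-0.55), against 5036 to 7720 in the controls. The single low Pparg value, 1423, belonged to antimiR-452 library 1, which held the most muscle RNA of all. Without that library the Pparg difference was -0.03, and without all 4 libraries rich in muscle genes -0.26, and neither was called. Esrra was at 7087, 4938, 8046 and 6450 with antimiR-224 (0.22, from a fit without the antimiR-452 libraries of this gene). Its mean in the authors' deposited table went from 4153 to 5279 with antimiR-452 (log2 0.35, p 0.546, adjusted p 1). Rxra was at 3197, 2222, 2145 and 3629 with antimiR-224 (-0.26) and at 4321, 1821, 3576 and 2735 with antimiR-452 (-0.14). Cebpa means in the authors' deposited tables were 10341 and 11100 for antimiR-224 (log2 0.10, adjusted p 1) and 10435 and 10109 for antimiR-452 (-0.05, adjusted p 1).

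Cebpd was highest in the muscle-rich libraries of BAT in each treatment group. It was at 1101, 273, 212 and 221 with antimiR-224 and at 1675, 295, 440 and 335 with antimiR-452, against 839, 682, 344 and 293 in the controls. The 4 libraries rich in muscle genes held the 4 highest values in BAT, 682 to 1675, and the other 8 lay between 212 and 440. A sum of 6 stromal progenitor markers was also highest in the libraries with most Cebpd, at 29367 in antimiR-452 library 1 and 13358 in antimiR-224 library 1, against 6529 to 11407 in the others. The part of either tissue in the Cebpd values was not tested. The differences from scramblemiR were -0.51 (adjusted p 0.962) and 0.08 (adjusted p 0.996). Cebpb was at 5052, 2030, 7072 and 7267 with antimiR-224 (-0.08) and at 1737, 5036, 8555 and 2439 with antimiR-452 (-0.46), with wide spread in each group.

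The precursor factors and Klf15 overlapped with their controls in BAT. Ebf1 was at 1286, 2321, 2162 and 1773 with antimiR-224 (log2 0.01, interval -0.66 to 0.67) and at 1142, 2973, 1308 and 2012 with antimiR-452 (-0.08, interval -0.75 to 0.58). Its lowest value in each of these groups was in the library rich in muscle genes. Zfp423 was at 350, 186, 177 and 239 with antimiR-224, where 3 of 4 libraries were below every control (log2 -0.52 ± 0.30, interval -1.16 to 0.12, unadjusted p 0.103, adjusted p 0.962). With antimiR-452 it was at 412, 201, 394 and 296 (-0.07). Without the libraries rich in muscle genes the Zfp423 differences were -0.91 and -0.38, and neither was called. Klf15 was at 3634, 2218, 2560 and 2652 with antimiR-224 (-0.01, interval -0.62 to 0.60) and at 3101, 1619, 2229 and 2371 with antimiR-452 (-0.27, interval -0.89 to 0.34). Among the PPARγ targets 16 of 22 had a ratio above 0 in BAT after antimiR-224 in the authors' deposited table (median 0.20, against -0.05 for all genes), and 14 of 22 after antimiR-452 (median 0.14, against 0.05). Of the 12 ERRα targets, 9 lay above 0 after antimiR-224 (median 0.17) and 5 after antimiR-452 (median -0.10) in the authors' deposited tables. Above 0 among all genes with a ratio there were 9469 of 20962 after antimiR-224 and 11514 of 21119 after antimiR-452. None of the targets passed, and the deposited means include the libraries rich in muscle genes.

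**Figure D4:**
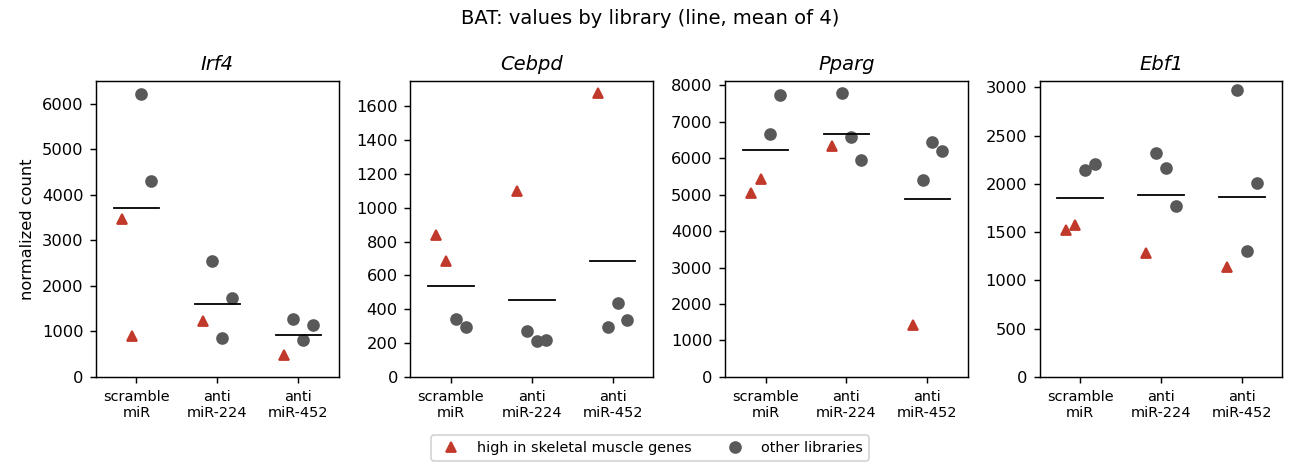
Normalized counts of Irf4, Cebpd, Pparg and Ebf1 in the 12 BAT libraries by treatment; the line is the mean of 4 and triangles are libraries rich in skeletal muscle genes. Irf4 runs from 484 to 2558 in the inhibitor groups against 898 to 6216 in the controls, and the Cebpd triangles are the highest points of their groups.

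The inhibitor groups were also compared with each other, without the shared controls. No gene was called in either tissue (0.00% each; 218 of 16562 genes in WAT and 127 of 14740 in BAT at an unadjusted p under 0.05). In WAT the member furthest apart was Zfp423, lower with antimiR-224 by 0.33 (interval -0.75 to 0.09, adjusted p 1). In BAT Irf4 was higher with antimiR-224 by 0.75 (interval -0.45 to 1.95, adjusted p 1) and Pparg by 0.66 (interval -0.23 to 1.55, adjusted p 1). The Pparg difference was 0.14 without antimiR-452 library 1 and 0.16 without all 4 libraries rich in muscle genes.

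Whether an inhibitor acted differently in the depots was tested as an interaction over all 24 libraries, with WAT and BAT libraries treated as independent. No gene passed for either inhibitor (0.00%; 557 and 998 of 15582 genes at an unadjusted p under 0.05). For Irf4 the antimiR-452 difference was higher in WAT than in BAT by 2.37 ± 0.96 (interval 0.39 to 4.36, unadjusted p 0.0215, adjusted p 0.752), and by 2.86 without the libraries rich in muscle genes. For antimiR-224 the same contrast was 1.46 (interval -0.53 to 3.44, adjusted p 0.861). The Zfp423 difference after antimiR-224 was below 0 in both tissues and called in neither. Its interaction was -0.12 (interval -0.86 to 0.61, adjusted p 0.933). Cebpb had an interaction of 0.99 with antimiR-452 (interval -0.27 to 2.24, adjusted p 0.771). Cebpa and Esrra could not be tested here.

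Within groups the factors did not vary as a single block. Pearson's r of log2 values after subtraction of each group mean, over 24 libraries that share the tissues described above, ran from -0.69 for Cebpd with Ebf1 to 0.85 for Klf15 with Rxra, among 28 pairs of the 8 genes recovered throughout. Cebpd also ran against Pparg (-0.60), and Ebf1 went with Pparg (0.53). Pparg and Rxra, whose products bind DNA as partners, had an r of -0.10. The genes most like each member among 12333 were N4bp2l1 and Skap2 for Pparg (0.96 each), Atic (0.93) and Nomo1 (0.88) for Rxra, and Pitrm1 (0.93) and Gm16439 (0.89) for Klf15. They were Yrdc (0.89) and Mocs3 (0.86) for Cebpb, 2310022A10Rik (0.86) and Lmcd1 (0.84) for Cebpd, and Plgrkt (0.88) and Gnaq (0.87) for Ebf1. For Zfp423 they were Dhx32 (0.85) and Pf4 (0.84), and for Irf4 Rgs2 (0.83) and Fbxl12 (0.75). These r values are descriptions over libraries that differ in tissue makeup and depth, with no test.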

How the data were processed

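Poly(A)-selected, directional libraries were made from Trizol RNA, per the labels' protocols. GRCm38.p4, DESeq 1.10.1 and R 2.15.3 are named in the submitters' processing notes, and no aligner, counting tool or annotation is given in the sources used here. The authors deposited, for each inhibitor and tissue, the mean normalized count (signal) of both groups, their ratio, its log2, the p-value and the adjusted p-value, each a fit of 4 against 4 libraries. Size factors were 0.857 to 1.253. Whole reads per library were solved from the printed means, with the deposited p-values settling ties. The recovery was tested on simulated data. The authors' files hold means and no counts, so no count model was fitted. limma 3.58.1 (R 4.3.3, trend and robust variance, two-sided) was fitted to log2(normalized count + 1) of genes with a mean of at least 10, on the 12 libraries of a tissue, the 8 controls, or all 24. Its fold changes are on that scale. A log2 shift of 0.893 between tissues (WAT minus BAT, median of ratios) was taken out. No library pair was a duplicate (lowest chi-square per degree of freedom 16.09), and 99.41% of identifiers had a symbol. The fits were tested on simulated data too. Of genes with a simulated 2-fold change from scramblemiR, 43% (antimiR-224) and 38% (antimiR-452) were called in WAT. In BAT 15% and 14% were, so a gene without a call is not shown to be unchanged. Members, gene lists, markers and libraries left out were chosen with earlier results of these data known. All 10 genes are named, up to 3 genes of each list by smallest p (1 such value is not reported here), and 2 most alike genes per member. Alternatives were other pseudocounts, minimum means, scalings and left-out libraries.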

Additional observations from a re-analysis of the deposited data

Results flagged for a closer look

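Each gene in each group with recovered reads gave a set of 4 values, 55 sets in all. In 4 of them a library lay far from the other 3. Dixon's test at the 95% level sets this from the gap to the nearest neighbour over the range of the set. Chance alone flags about 1 in 20 independent sets, but these sets share the same 24 libraries and are not independent. Cebpd was at 1101 in BAT antimiR-224 library 1 (gap 0.932 of the range) and at 1675 in BAT antimiR-452 library 1 (0.895), both libraries rich in skeletal muscle genes. Klf15 was at 2752 in WAT antimiR-452 library 4 (0.916), the library of that group low in epithelium genes. Irf4 was at 437.5 in WAT antimiR-452 library 3 (0.832), the WAT library with the highest sum of skeletal muscle markers, 7652.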

How the results depend on the processing

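Over 1240 alternative values of the 10 genes, 1160 kept direction and call, 68 changed sign where neither value passed, 8 lost a call and 4 gained one. No alternative called any of them in an inhibitor comparison. The depot calls numbered 7030 and were 5897 to 6688 with a library left out and 5891 (37.8% of genes tested) without the germ cell and muscle libraries. In WAT after antimiR-224 the deposited table called 1 gene and limma 0, and that gene was not among those limma could test. Without the germ cell and muscle libraries Klf15 differed between depots by 0.07. Without the muscle libraries the BAT antimiR-224 differences were -0.09 for Pparg, -0.07 for Ebf1 and -0.01 for Esrra, that of Cebpb between the inhibitors in BAT was -0.0036, and the Zfp423 interactions were 0.26 (antimiR-224) and 0.07 (antimiR-452). Scaling to total reads gave depot differences of 0.18 for Pparg and 0.29 for Klf15, and Rxra in WAT after antimiR-224 was 0.05 without the epithelium libraries; the cause was not tested for any of these.

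Some differences changed sign with a library left out, and not only those near 0. With all libraries, Irf4 in WAT after antimiR-224 was at 0.41. The antimiR-452 interactions were 0.34 for Pparg, 0.26 for Cebpd and -0.25 for Ebf1. The ranges were, for the antimiR-224 interaction, -0.28 to 0.08 for Zfp423 and -0.16 to 0.18 for Rxra. For the antimiR-452 interaction they were -0.18 to 0.54 for Pparg, -0.01 to 0.82 for Cebpd, -0.45 to 0.01 for Ebf1, -0.13 to 0.26 for Klf15 and -0.28 to 0.15 for Rxra. In BAT after antimiR-224 they were -0.28 to 0.33 for Cebpb, -0.11 to 0.18 for Ebf1 and -0.23 to 0.14 for Klf15. In BAT after antimiR-452 they were -0.48 to 0.36 for Cebpd, -0.34 to 0.12 for Ebf1, -0.20 to 0.15 for Zfp423 and -0.34 to 0.09 for Rxra. Between the inhibitors in BAT they were -0.11 to 0.35 for Ebf1 and -0.35 to 0.06 for Rxra, and in WAT -0.27 to 0.04 for Cebpb, -0.34 to 0.18 for Cebpd, -0.26 to 0.02 for Klf15, -0.78 to 0.06 for Irf4 and -0.23 to 0.11 for Rxra. Irf4 in WAT after antimiR-224 ran from -0.01 to 1.12. WAT antimiR-452 without the epithelium libraries was not run, since 1 library would remain. No paired analysis was possible because the recovered libraries could not be tied to the replicate numbers in the labels.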

Other observations

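The co-regulators with the smallest p in each inhibitor comparison did not pass either. In WAT after antimiR-224 these were Stat5a, a transducer of growth hormone and prolactin signals (log2 -0.77, unadjusted p 0.00417, adjusted p 0.722), the lipogenic factor Srebf1 (-0.75, unadjusted p 0.0116, adjusted p 0.722) and the retinoid receptor Rxrg (-0.97, unadjusted p 0.0229, adjusted p 0.722). In WAT after antimiR-452 the glucocorticoid receptor gene Nr3c1 had the smallest p (-0.34, unadjusted p 0.00931, adjusted p 0.957). In BAT after antimiR-452 they were Ppara, the receptor that drives fatty acid oxidation (-1.08, unadjusted p 0.00822), Prdm16 (-0.76, unadjusted p 0.0118) and the coactivator gene Ncoa1 (-0.47, unadjusted p 0.0134), each with an adjusted p of 0.937. In BAT after antimiR-224 the immediate early factor Egr2 differed by -2.07 (unadjusted p 0.0244), Ncoa1 by -0.41 (unadjusted p 0.0258) and Prdm16 by -0.61 (unadjusted p 0.0336), each with an adjusted p of 0.962. Of the 39 co-regulators, 28 had a ratio below 0 in BAT after antimiR-224 and 24 in each of the other comparisons in the authors' deposited tables. Below 0 among all genes with a ratio there were 11493 of 20962 in BAT after antimiR-224, 9605 of 21119 in BAT after antimiR-452, 13544 of 25319 in WAT after antimiR-224 and 13829 of 24650 in WAT after antimiR-452. The medians of the co-regulators were -0.17, -0.08, -0.06 and -0.05 in that order, against -0.05, 0.05, -0.03 and -0.05 for all genes.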
